A study of Mus musculus with 4 samples.

Results

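The expression of 10 genes of the Notch pathway or connected with it was followed in WT and Ets1-/- follicular B cells: the receptors Notch1 and Notch2, the sugar-transferring enzyme Mfng, the protease Adam10, the nuclear factors Rbpj, Maml1 and Maml2, the co-regulator Zmiz1, and the pathway targets Hes1 and Dtx1. The genes were chosen by name, and all 10 were found among the 23305 genes of the files. Quiescent follicular B cells, the recirculating mature B cells of the spleen, had been sorted as B220+, high for CD23, low for CD21 and negative for CD80 and for the switched immunoglobulins IgA, IgE, IgG1, IgG2a, IgG2b and IgG3, and their RNA was sequenced in 2 libraries per genotype. WT libraries came from female C57BL/6 mice, and Ets1-/- libraries from female mice lacking Ets1 in the whole body on a C57BL/6 x 129Sv mixed background, since loss of Ets1 on pure C57BL/6 kills mice around birth. Strain and genotype thus cannot be told apart in any difference given here. The age of these mice is not given in the sources used here.

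Notch receptors are cut at the cell surface when a ligand on a neighboring cell pulls on them, and their freed intracellular domain enters the nucleus, where it joins the DNA-binding protein Rbpj and a Mastermind-like (Maml) coactivator to switch on target genes. Fringe enzymes modify the sugars on the receptor and so tune which ligands it responds to. In the spleen, signaling through Notch2 is known for its need in the formation of marginal zone B cells, the sister population of follicular B cells. Zmiz1 resembles the Pias family of co-regulators and is known from T cells as a partner of Notch1 at target genes.

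Expression is given as FPKM, fragments per kilobase and per mapped fragments of a library, so that levels of different genes can be set side by side per length. To be called changed, a gene needed a difference of 1 or more, up or down, on the log2(FPKM + 1) scale together with a Benjamini-Hochberg adjusted p no higher than 0.05 in limma, fitted across the 10949 genes whose mean reached 1 FPKM in WT or Ets1-/- cells. All 10 genes passed the filter on low values, each of them in both genotypes. Positions are those of mm9, the build of the files, from GENCODE M1.

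The sequences just before the starts of the 3 genes of the pathway and the Zmiz family that were called changed are shown first, because Ets1 binds DNA at ETS motifs and Rbpj at its own. Each run holds the 250 bases before the RefSeq start on GRCm38.p6, 5′ to 3′ on the gene's strand. Capitals mark matches, on either strand, to 2 sets of letters of the ETS type, CCGGAA and the related form CAGGAA, and to those of the Rbpj type, which are TGGGAA. A match on the other strand appears as the reverse complement, and all of these letters end in GGAA, the core that both types share.
Zmiz1, chr14:25458935-25459184, plus strand: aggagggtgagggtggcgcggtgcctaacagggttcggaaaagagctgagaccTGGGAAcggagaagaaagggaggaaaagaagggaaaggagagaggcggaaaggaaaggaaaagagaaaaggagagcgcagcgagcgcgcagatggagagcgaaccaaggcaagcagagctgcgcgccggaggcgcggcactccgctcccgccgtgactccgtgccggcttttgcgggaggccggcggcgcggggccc
Lfng, chr5:140607091-140607340, plus strand: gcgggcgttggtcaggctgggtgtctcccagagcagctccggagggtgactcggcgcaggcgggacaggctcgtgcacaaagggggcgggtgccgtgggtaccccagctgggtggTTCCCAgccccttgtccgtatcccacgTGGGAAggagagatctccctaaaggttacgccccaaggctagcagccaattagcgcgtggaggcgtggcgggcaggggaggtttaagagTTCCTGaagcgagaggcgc
Psen2, chr1:180256301-180256550, minus strand, the more upstream of 2 starts: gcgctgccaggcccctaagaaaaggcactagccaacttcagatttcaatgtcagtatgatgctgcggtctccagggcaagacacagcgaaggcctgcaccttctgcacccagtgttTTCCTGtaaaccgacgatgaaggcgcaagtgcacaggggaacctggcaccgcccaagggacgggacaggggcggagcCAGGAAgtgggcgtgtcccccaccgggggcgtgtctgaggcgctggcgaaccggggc

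Zmiz1 had 1 match to the Rbpj letters, which began 197 bases before the start, and none to the ETS letters. In Lfng there were 2 matches to the Rbpj letters, beginning 135 and 108 bases before the start, and 1 to CAGGAA at 19 bases. The printed window of Psen2 had 2 matches to CAGGAA, at 134 and 57 bases, and that of its other start had no ETS match and 1 match to the Rbpj letters, at 89 bases. Of all 32851 RefSeq windows of this length, 35.1% held at least 1 of the ETS letters and 21.6% the Rbpj letters, so such matches are common. Windows were listed for 8 of the 10 genes, all but Hes1 and Mfng. Among these 10 windows 3 held ETS letters, those of Adam10, Maml1 and Notch1, and 4 held the Rbpj letters, namely Zmiz1, both starts of Rbpj and 1 of the 2 starts of Maml2. These letters are a description of the windows and no evidence for or against binding, and GGAA with other letters before it was not counted. In the paper, Zmiz1 is listed as downregulated 2.7-fold among the potential Ets1 targets, which were drawn from genes with an Ets1-binding peak nearby.

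All 8 B cell markers looked up, Cd79a among them, were present in the libraries, with summed levels of 5102 to 6198 FPKM. Fcer2a, which encodes the gated CD23, had an FPKM of 663.5 and 544 in WT and of 488 and 559.6 in Ets1-/- cells. Relative to WT replicate 1, depth as read from the steps of low values lay between 0.876 and 1.75, with the deeper library of each genotype at 1.75 (WT) and 1.67 (Ets1-/-); the read numbers behind single values are not part of the files. Ets1 itself was listed at 231 and 275 FPKM in WT and 229 and 229.8 FPKM in Ets1-/- cells. As 1 value per gene does not separate the targeted exons from the others, it does not check the labels. From its RNA-seq profiles the paper reports reduced or absent transcription of the targeted exons in Ets1-/- cells, with Ets1 as a whole not reduced. Neutrophil markers were higher in both Ets1-/- libraries for 10 of 10 genes, beside 19.4% of all tested genes. Their summed levels were 115 and 94.2 FPKM in WT against 2572 and 705 FPKM in Ets1-/- cells. Erythroid markers summed to 6.31 and 4.87 FPKM in WT and to 88.8 and 27.9 FPKM in Ets1-/- cells. Macrophage and monocyte markers summed to 67.2 and 32.5 FPKM in WT and to 153.5 and 96.6 FPKM in Ets1-/- cells. Plasma cell markers summed to 168 and 189 FPKM in WT and to 138 and 152 FPKM in Ets1-/- cells. Of these 6 genes, 3 were lower and 2 higher without overlap, beside 22.2% and 19.4% of all tested genes. None of the markers of these cell types was at 0 in all libraries, and their part in the results below was not tested. T cell markers, which bear on Notch1, summed to 181 and 147 FPKM in WT and to 146 and 192 FPKM in Ets1-/- cells. In sorted bulk RNA, fewer cells carrying a transcript and less transcript per cell cannot be told apart.

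Zmiz1 was the only one of the 10 genes that passed both thresholds, and it fell. It is thus 1 of 10 genes called, beside 1.70% of all tested genes called in either direction and 0.822% called lower. Before any test, 8 of the 10 genes had both Ets1-/- values below both WT values, whereas 22.2% of all tested genes did so. None of the 10 had both Ets1-/- values above both WT values, beside 19.4% of all tested genes. An unadjusted p under 0.05 from limma was reached by 5 genes (Zmiz1, Maml2, Mfng, Dtx1 and Notch1), all lower. Of all 10949 tested genes, 761 reached it lower and 700 higher, together 13.3%. The median log2 fold change was -0.42 over the 10 genes and -0.02 over all tested genes. Without Zmiz1 the median of the other 9 was -0.33. The genes were picked with earlier results of these data known, so these counts describe the 10 genes and are no test of the pathway.

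**Figure D1:**
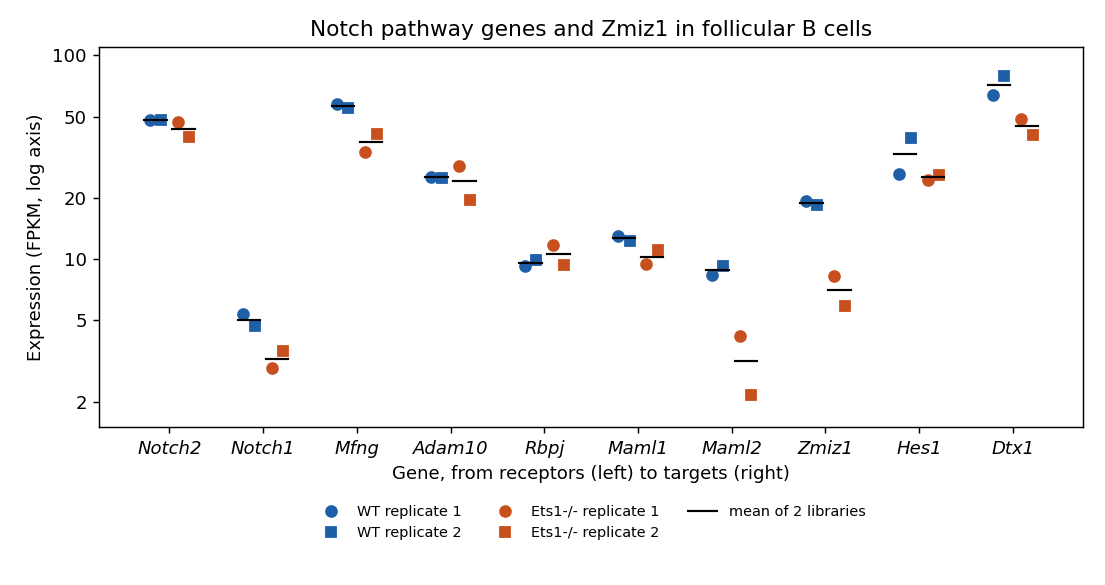
Expression of the 10 genes in each library, in FPKM on a log axis, with WT libraries in blue, Ets1-/- libraries in orange and the mean of the 2 libraries of a genotype as a black line. Zmiz1 and Maml2 show the widest gaps between genotypes, with Zmiz1 at 19.2 and 18.5 FPKM in WT against 8.24 and 5.86 FPKM, while the libraries of Rbpj and Adam10 overlap.

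In WT cells the levels ran from Dtx1 at 71.2 FPKM through Mfng, Notch2, Hes1, Adam10, Zmiz1, Maml1, Rbpj and Maml2 down to Notch1 at 5.03 FPKM. The libraries of neighbors in this order lay apart except those of Rbpj and Maml2. Dtx1 stood at percentile 88.9 of the tested genes by WT mean and Notch1 at percentile 24.1. In Ets1-/- cells the order was Dtx1, Notch2, Mfng, Hes1, Adam10, Rbpj, Maml1, Zmiz1, Notch1 and Maml2, so that Zmiz1 stood below Rbpj and Maml1, both of which it exceeded in WT. Here the libraries overlapped for more neighbors, namely Dtx1 and Notch2, Notch2 and Mfng, Hes1 and Adam10, Rbpj and Maml1, and Notch1 and Maml2. The 10 genes differed more between the Ets1-/- replicates, with a median absolute log2 difference of 0.27, than between the WT replicates, with 0.09, and over all tested genes these medians were 0.26 and 0.13.

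Among receptors, follicular B cells expressed Notch2, the receptor needed for the marginal zone fate, far above Notch1, and Notch3 and Notch4 were below the filter with at most 0.201 FPKM. Notch2, at bases 97817461 to 97954290 on chromosome 3, had an FPKM of 48.3 and 48.2 in WT and of 47.3 and 39.9 in Ets1-/- cells. The genotypes did not overlap, but Ets1-/- replicate 1 lay within 1 FPKM of the WT libraries. The log2 fold change of Notch2 was -0.15 (standard error 0.15, 95% interval -0.53 to 0.24) with a Benjamini-Hochberg adjusted limma p of 0.812. Notch1, the receptor that directs T cell fate, lies at bases 26313423 to 26372183 on chromosome 2. Its FPKM was 5.36 and 4.69 in WT and 2.91 and 3.53 in Ets1-/- cells, lower in both Ets1-/- libraries. This was a log2 fold change of -0.51 (standard error 0.16, 95% interval -0.93 to -0.10), and the Benjamini-Hochberg adjusted limma p of 0.247 did not pass. Opposite-strand noncoding genes share 7.50% and 2.91% of the exon bases of Notch1. If the libraries do not mark strand, their reads there cannot be told apart. Of 7 ligand genes only Dll1, which encodes a ligand shown to B cells by neighboring stromal cells, passed the filter. Dll1 stood at 1.49 and 1.56 FPKM in WT and 1.45 and 1.05 FPKM in Ets1-/- cells, with 20.6% of its exon bases shared with an opposite-strand noncoding gene, while the other 6 ligand genes did not exceed 0.459 FPKM in any library.

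The enzymes that glycosylate Notch receptors held the largest log2 fold change among the tested genes of the pathway, in Lfng, a Fringe paralog of Mfng. Lfng, at bases 141083295 to 141091497 on chromosome 5, had an FPKM of 28.4 and 26.3 in WT and of 3.07 and 4.15 in Ets1-/- cells. Both Ets1-/- libraries were far below WT, with a mean at 13.2% of the WT mean. Lfng fell by 2.63 on the log2 scale (standard error 0.17, 95% interval -3.07 to -2.19, limma, Benjamini-Hochberg adjusted p = 0.00571). This call held with each library left out in turn. Mfng, at bases 78586312 to 78603905 on chromosome 15, had an FPKM of 57.4 and 55.1 in WT and of 33.6 and 41.3 in Ets1-/- cells. Both Ets1-/- libraries were lower, and the mean stood at 66.5% of WT. The log2 difference of -0.58 (standard error 0.16, 95% interval -0.99 to -0.18) had a Benjamini-Hochberg adjusted limma p of 0.193 and was not called. Rfng, the third Fringe, overlapped between genotypes at 11.9 and 10.2 FPKM in WT and 8.48 and 11.0 FPKM in Ets1-/- cells. Poglut1 and Pofut1, which attach the first sugars to the receptor, had log2 fold changes of -0.09 and 0.05.

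Receptor cleavage begins with Adam10, which cuts the receptor outside the membrane, and ends with gamma-secretase, which cuts it within the membrane. Adam10, at bases 70526804 to 70628036 on chromosome 9, had an FPKM of 25.3 and 25.1 in WT and of 28.7 and 19.4 in Ets1-/- cells. The Ets1-/- libraries lay on both sides of WT, the deeper one above and the shallower one below. The log2 fold change was -0.09 (95% interval -0.63 to 0.45), with a Benjamini-Hochberg adjusted limma p of 0.944. Adam17, a related protease, stood at 24.1 and 23.7 FPKM in WT and 30.0 and 26.4 FPKM in Ets1-/- cells, and its adjusted p was 0.636. Psen2, which encodes a catalytic subunit of gamma-secretase, had an FPKM of 40.2 and 38.0 in WT and of 15.1 and 17.5 in Ets1-/- cells. Both Ets1-/- libraries lay well below WT, and Psen2 was called lower. Psen2, at bases 182157135 to 182193569 on chromosome 1, fell by 1.22 on the log2 scale (standard error 0.14, 95% interval -1.59 to -0.85, limma, Benjamini-Hochberg adjusted p = 0.0301). The call of Psen2 was lost with any 1 library left out, with adjusted p from 0.0593 (without Ets1-/- replicate 2), 0.0621 (without Ets1-/- replicate 1) and 0.152 (without WT replicate 2) to 0.213 (without WT replicate 1), while its log2 fold change stayed between -1.32 and -1.11.

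In the nuclear complex all 3 Mastermind-like coactivators were lower in both Ets1-/- libraries without a call, beside 22.2% of all tested genes lower without overlap. The DNA-binding partner Rbpj overlapped between genotypes. Rbpj, at bases 53947018 to 54048684 on chromosome 5, had an FPKM of 9.23 and 9.93 in WT and of 11.8 and 9.38 in Ets1-/- cells. It had the only log2 fold change above 0 among the 10 genes, 0.12 (95% interval -0.29 to 0.54, limma, Benjamini-Hochberg adjusted p = 0.868). Maml1, at bases 50069136 to 50105838 on chromosome 11, stood at 13.1 and 12.3 FPKM in WT and at 9.51 and 11.0 FPKM in Ets1-/- cells. Both Ets1-/- values were lower, at a log2 difference of -0.28 (standard error 0.15) and a Benjamini-Hochberg adjusted limma p of 0.537. Maml2, at bases 13424434 to 13513832 on chromosome 9, stood at 8.40 and 9.25 FPKM in WT and at 4.18 and 2.15 FPKM in Ets1-/- cells. Its Ets1-/- libraries were the least alike of the 10 genes, 1.94 times apart, and both were less than 50% of either WT library. The log2 fold change of Maml2 was -1.28 (standard error 0.27, 95% interval -1.96 to -0.60), and with a Benjamini-Hochberg adjusted limma p of 0.109 it was not called. Without Ets1-/- replicate 1 the adjusted p was 0.0488, and without Ets1-/- replicate 2 it was 0.111 at a log2 fold change of -0.92. Maml3 had lower levels, with 2.35 and 2.04 FPKM in WT and 0.593 and 0.798 FPKM in Ets1-/- cells. It was not called either, at a log2 difference of -0.91 (standard error 0.17) and a Benjamini-Hochberg adjusted limma p of 0.0798. Maml2 and Adam10 lie on the chromosome of Ets1, 18.9 and 38.0 Mb from it.

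Zmiz1 lies at bases 26278671 to 26486229 on chromosome 14 on the plus strand, with 27 merged exons. Its FPKM was 19.2 and 18.5 in WT and 8.24 and 5.86 in Ets1-/- cells, so that both Ets1-/- libraries were below 50% of either WT library. The means were 18.9 ± 0.491 FPKM (SD, n = 2) and 7.05 ± 1.68 FPKM (SD, n = 2), which puts Ets1-/- cells at 37.4% of WT. Zmiz1 fell by 1.32 on the log2 scale (standard error 0.19, 95% interval -1.80 to -0.84, limma, Benjamini-Hochberg adjusted p = 0.0487), just inside the threshold. The call was lost without WT replicate 1 (adjusted p = 0.201), without WT replicate 2 (0.158), without Ets1-/- replicate 2 (0.0715) and with no filter on low values (0.0982), with log2 fold changes from -1.53 to -1.10 over the 4 libraries left out. By the ratio of mean FPKM, with no test, Zmiz1 and Maml2 were the 2 genes that differed at least 2-fold, beside 7.33% of all tested genes. Neither overlapped between genotypes, and 6.36% of all tested genes differed at least 2-fold without overlap.

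The other genes of the Zmiz and Pias family, which assist SUMO modification and transcription factors, gave no call. Zmiz2, the closest paralog, was the more abundant, at 109.6 and 93.0 FPKM in WT and 84.2 and 103.5 FPKM in Ets1-/- cells. Its libraries overlapped between genotypes, with a log2 fold change of -0.11 (95% interval -0.57 to 0.35). Of Pias1, Pias2, Pias3 and Pias4, only Pias3 had no overlap, being higher at 15.4 and 16.6 FPKM in Ets1-/- cells against 13.5 and 13.2 FPKM in WT, with a Benjamini-Hochberg adjusted limma p of 0.578. Part of the Zmiz1 exons are shared with other gene models, 13.6% with Gm10397 on the same strand and 2.37% with D930049A15Rik on the opposite strand.

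The genes whose profile over the 4 libraries was most like that of Zmiz1, by Euclidean distance of centered log2(FPKM + 1) values among 10948 other genes, were Chst10, Dennd4a, Arhgap18, Golm1 and Gpr137b-ps. The distances ran from 0.06 for Chst10 to 0.16 for Gpr137b-ps. Chst10, a sulfotransferase, had 15.5 and 14.5 FPKM in WT and 6.72 and 4.72 FPKM in Ets1-/- cells. Dennd4a, which holds a DENN domain, had 25.8 and 23.4 FPKM in WT and 11.0 and 8.13 FPKM in Ets1-/- cells. All 5 were lower in both Ets1-/- libraries and lowest in Ets1-/- replicate 2, as was Zmiz1, which the choice by likeness fixes. Gpr137b-ps is a pseudogene whose reads may be split with its parent gene.

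The target genes gave no call in either direction. Hes1, a repressor that Notch induces in many tissues, lies at bases 30064470 to 30067882 on chromosome 16 and had an FPKM of 26.2 and 39.0 in WT and of 24.6 and 25.9 in Ets1-/- cells. WT replicate 1 lay within 1 FPKM of an Ets1-/- library, and the WT libraries differed 1.49-fold from each other. The log2 fold change was -0.33 (95% interval -0.89 to 0.22) with a Benjamini-Hochberg adjusted limma p of 0.652. Without WT replicate 1 it was -0.61, and without WT replicate 2 it was -0.05. Dtx1, a ubiquitin ligase and a Notch2 target of marginal zone B cells, lies at bases 121130211 to 121161936 on chromosome 5. It had an FPKM of 63.6 and 78.9 in WT and of 48.8 and 40.8 in Ets1-/- cells, lower in both Ets1-/- libraries. Its log2 fold change was -0.65 (standard error 0.18, 95% interval -1.12 to -0.19), and the Benjamini-Hochberg adjusted limma p of 0.196 did not pass. The paralogs Dtx2, Dtx3, Dtx3l and Dtx4 overlapped between genotypes, with log2 fold changes from -0.10 to 0.33.

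Other targets of the list lay on both sides of 0 without a call. Hes5, a paralog of Hes1, was the only tested target higher without overlap, at 2.77 and 2.30 FPKM in WT and 5.82 and 9.47 FPKM in Ets1-/- cells. The log2 difference of 1.26 (standard error 0.25) had a Benjamini-Hochberg adjusted limma p of 0.0924, and 31.8% of its exon bases are shared with an opposite-strand transcript. Nrarp, a Notch-induced inhibitor of Notch signaling, was chosen for mention after its values were seen, as was Tle1. Nrarp had 1.43 and 1.85 FPKM in WT and 0.641 and 0.633 FPKM in Ets1-/- cells, a log2 difference of -0.68 with an adjusted limma p of 0.158. Cr2, which encodes CD21 and is high in marginal zone B cells, had 101.6 and 116 FPKM in WT and 65.1 and 30.0 FPKM in Ets1-/- cells, a log2 difference of -1.28 (standard error 0.37) and a Benjamini-Hochberg adjusted limma p of 0.216. Without Ets1-/- replicate 2 it was -0.73, and without Ets1-/- replicate 1 it was -1.82 with an adjusted p of 0.0488 (limma, Benjamini-Hochberg). Cells low in CD21 had been selected by the sort, so Cr2 is no free readout. The paper lists Cr2 as downregulated 2.3-fold among potential Ets1 targets, from Cuffdiff, a test other than the one used here. Hey1, Hey2 and Heyl were below the filter, and Hey2 was listed at 0 in both Ets1-/- libraries.

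**Figure D2:**
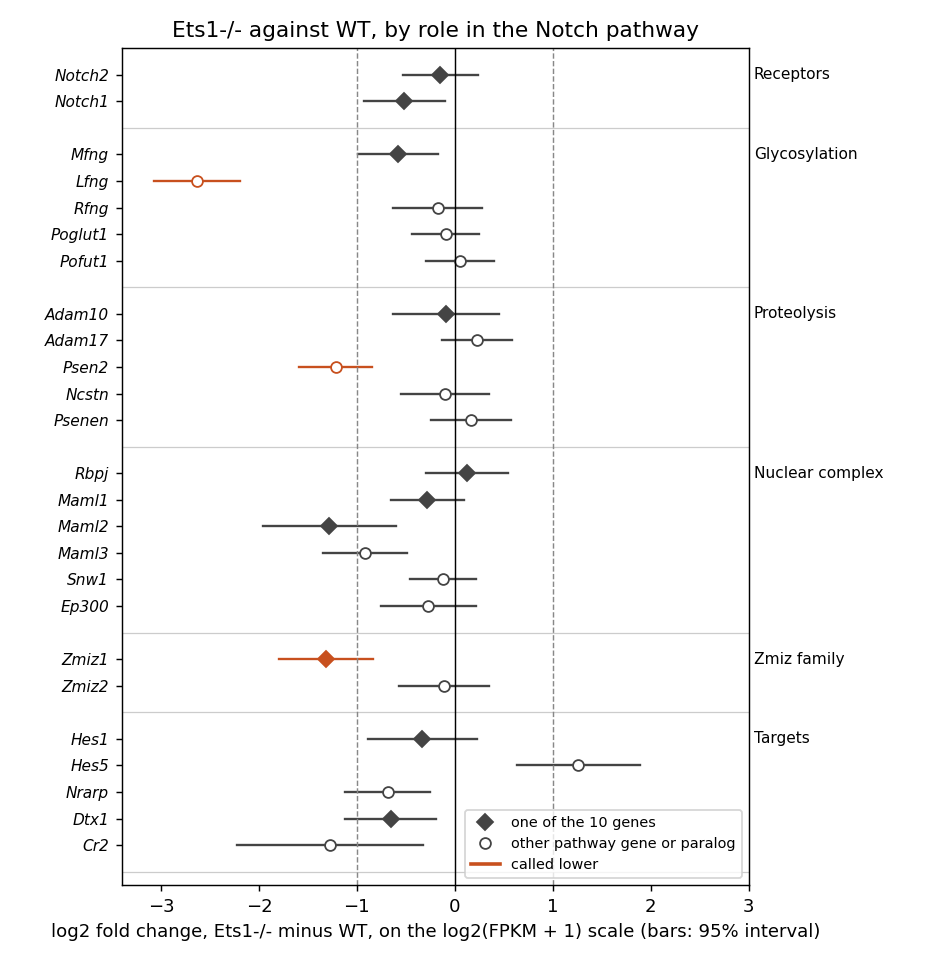
The log2 fold change of Ets1-/- against WT on the log2(FPKM + 1) scale, with 95% intervals from limma, for the 10 genes (filled diamonds) and other genes of the pathway and paralogs (open circles), grouped by role. Zmiz1, Lfng and Psen2 (orange) were called lower, at -1.32, -2.63 and -1.22, while dashed lines mark the thresholds of 1 on this scale in either direction.

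Over the whole pathway list of 72 genes, which includes 9 of the 10 genes, 53 passed the filter on low values and 2, Lfng and Psen2, were called, both lower, beside 1.70% of all tested genes called in either direction. The 19 genes not tested had at most 0.939 FPKM in any library. The list's median log2 fold change was -0.11, and that of the 44 tested genes outside the 10 was -0.10, beside -0.02 over all tested genes. Both Ets1-/- values were below both WT values for 23 of the 53 genes and above them for 5, beside 22.2% and 19.4% of all tested genes. An unadjusted limma p under 0.05 was reached by 10 genes lower and 1 higher, Hes5. Of all 10949 tested genes, 761 reached it lower and 700 higher, together 13.3%. By role, no gene was called among 2 receptors, 9 genes of the nuclear complex, 12 corepressors, 6 targets, 11 genes of endocytosis and turnover and 1 ligand tested, 1 was among 5 glycosylation genes and 1 among 8 proteolysis genes. Among corepressors Tle1, a Groucho homolog, had the largest difference, with 3.48 and 3.36 FPKM in WT and 1.12 and 1.71 FPKM in Ets1-/- cells and a Benjamini-Hochberg adjusted limma p of 0.109.

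The ratio of paralogs within a library does not depend on how the library was scaled, and in each of the 6 pairs given here it differed without overlap between genotypes. The pairs hold genes whose differences are given above, so this separation is in part built in. No share over other pairs of genes was computed. Mfng exceeded Lfng 2.02- and 2.10-fold in the WT libraries and 10.9- and 9.95-fold in the Ets1-/- libraries. Zmiz2 exceeded Zmiz1 5.71- and 5.03-fold in WT and 10.2- and 17.7-fold in Ets1-/- cells. The ratio of Maml1 to Maml2 was 1.55 and 1.33 in WT and 2.28 and 5.14 in Ets1-/- cells. For Notch2 over Notch1 the values were 9.0 and 10.3 in WT and 16.2 and 11.3 in Ets1-/- cells, with 1 Ets1-/- library close to WT. The ratio of Maml1 to Maml3 was 5.55 and 6.05 in WT and 16.0 and 13.8 in Ets1-/- cells. Hes1 over Hes5 was the 1 ratio that was lower in Ets1-/- cells, at 4.22 and 2.73 against 9.47 and 16.9 in WT. These ratios were not tested, since an exact permutation test of 2 against 2 libraries cannot go below a two-sided p of 0.333.

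**Figure D3:**
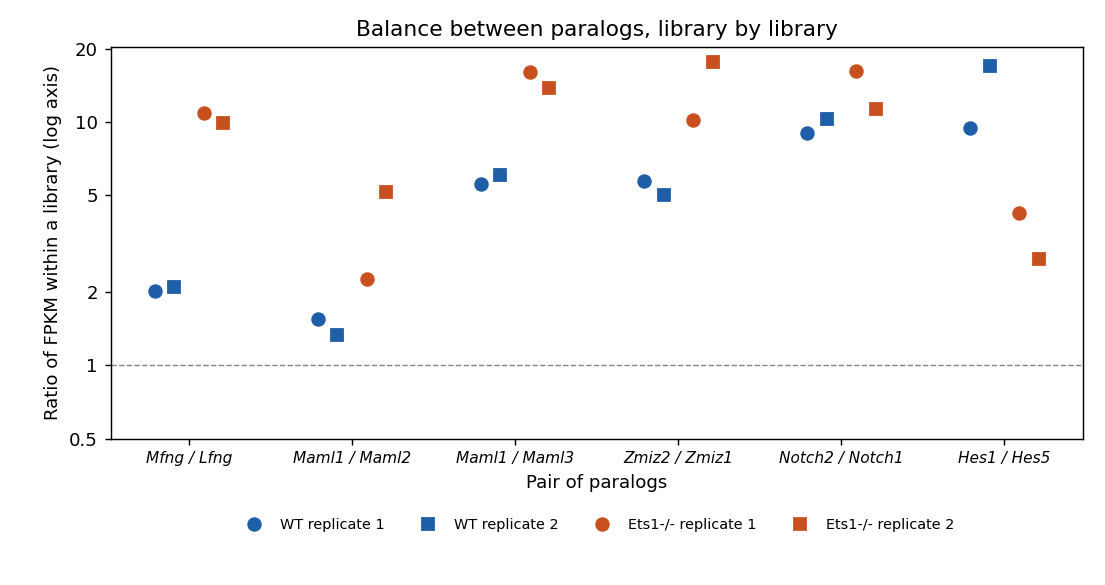
Ratio of the FPKM of paralogs within each library, on a log axis with a dashed line at a ratio of 1, for WT (blue) and Ets1-/- (orange) libraries. The Mfng to Lfng ratio was 2.02 and 2.10 in WT and 10.9 and 9.95 in Ets1-/- cells, and the Zmiz2 to Zmiz1 ratio was 5.71 and 5.03 in WT and 10.2 and 17.7 in Ets1-/- cells.

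Of the 10 genes, 9 had a log2 fold change below 0, beside 5809 of all 10949 tested genes. Apart from Zmiz1 and Maml2, their log2 fold changes lay between -0.65 and 0.12. In the fit with a replicate block, Zmiz1 was again the 1 gene called (limma, Benjamini-Hochberg adjusted p = 0.0245), beside 2.43% of all tested genes. Its standard error was 0.24 with the block and 0.19 without it. The labels tie no replicate numbers together, so this fit adds no support for the call.

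**Figure D4:**
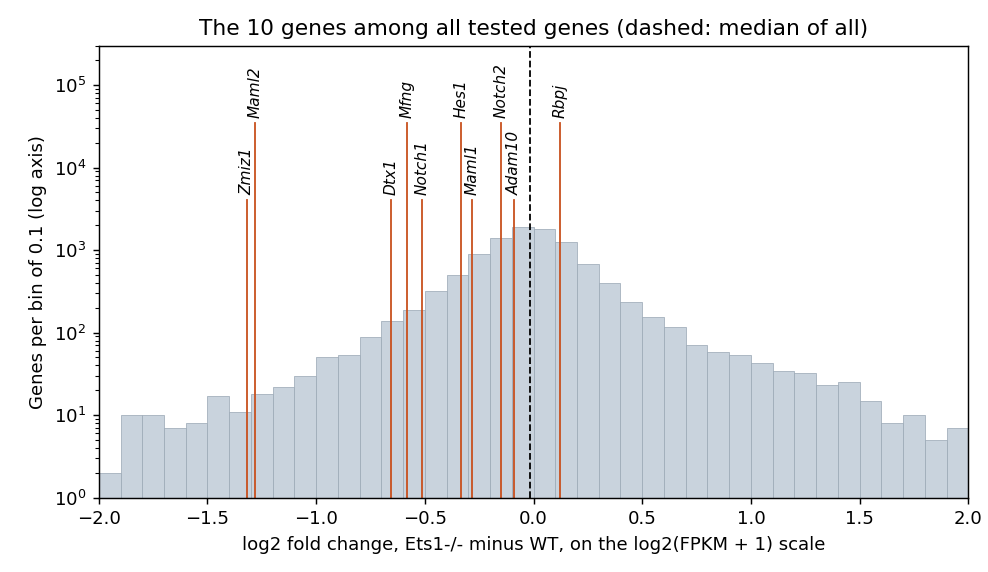
Histogram of the log2 fold change of Ets1-/- against WT on the log2(FPKM + 1) scale over tested genes, with the number of genes per bin on a log axis, the 10 genes as orange lines and the median of all tested genes, -0.02, as a dashed line. Zmiz1 at -1.32 and Maml2 at -1.28 stand apart from the other 8 genes, and 175 of 10949 genes lie beyond the plotted range of 2 on either side.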

How the data were processed

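Total RNA of sorted follicular B cells from 2 WT and 2 Ets1-/- samples had been made into libraries with an Illumina TruSeq kit. The authors aligned the reads to mm9 with TopHat2 (2.0.13 per the submitters' processing notes), estimated expression with Cuffdiff and deposited 1 FPKM value per gene and library; the annotation and the Cuffdiff version are not given in the sources used here. FPKM already holds the division by length and mapped reads, so tests that need read counts were not run, and the precision rests on the spread between 2 libraries, which may be technical in part. Of 23309 entries, 4 with repeated symbols were left out. limma 3.58.1 in R 4.3.3 (lmFit, eBayes with a trend) was fitted to log2(FPKM + 1) of all 4 libraries for the 10949 genes whose mean reached 1 FPKM in WT or Ets1-/- cells, with Benjamini-Hochberg adjustment over all of them. The fit was also run on simulated data as a check of the code, which does not bear on calls near the threshold. Adding 1 understates the change of low genes. Ratios, counts and motif matches were computed with Python 3.11.15, numpy 2.4.6 and pandas 2.3.3.

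The 10 genes, the pathway and marker lists and the tests were chosen with earlier results of these data known, Zmiz1 included, so they are no independent evidence. Named are the 10 genes and their paralogs; listed genes called or changed by at least 1 on the log2 scale; the 3 highest WT genes of each list, in part given by counts only; Ets1, Cr2 and Fcer2a; the 5 genes nearest to Zmiz1; and 8 genes outside this rule, chosen after their values were seen (Nrarp, Tle1, Pik3r4, Ccr7, Cxcr4, Pofut1, Foxo1 and Cxcr5). Deviations of same-numbered replicates from their genotype means were weakly and negatively correlated (-0.21 across genes). The labels tie no numbers to a shared day or litter, so the replicate number was not used as a block. Other settings tried were pseudocounts of 0.1 and 0.5, other filters, quantile and upper-quartile scaling, robust variances, the block, each library left out and no test. Some genes of the lists are not reported here.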

Additional observations from a re-analysis of the deposited data

How the results depend on the processing

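The direction of Zmiz1, Lfng, Psen2 and Maml2 held under every alternative run, but the calls near the threshold did not. The reported counts were 186 called among all genes, 1 among the 10 genes, 2 in the pathway list and 0 in the follicular and marginal zone list (10 at an unadjusted p under 0.05). Without a filter on low values (17315 genes tested) these were 75, 0, 1 and 0, and with a mean FPKM of at least 5, 106 among all genes. Robust variance estimation gave 305, 2 (Maml2 and Zmiz1), 4 and 1. Pseudocounts of 0.1 and 0.5 and quantile normalization each gave 1 in the follicular and marginal zone list. With no test, 2 of the 10 genes differed 2-fold, and the same 2 without overlap. With each library left out in turn the counts ran from 0 to 2 among the 10 genes, from 1 to 3 in the pathway list, from 0 to 1 in the follicular and marginal zone list and from 130 to 144 among all genes. The cause was not tested.

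With the replicate block 266 genes were called, 112 lower and 154 higher, against 90 lower and 96 higher without it; the block gave 1 of the 10 genes, 2 of the pathway list and 0 of the follicular and marginal zone list, so it changed none of these calls. The crossed pairing as a block, chosen after seeing the data, gave 409, 2, 5 and 2. Genes near 0 changed sign when a library was left out, with log2 fold changes from -0.03 to 0.27 for Rbpj, -0.36 to 0.18 for Adam10, -0.26 to 0.04 for Zmiz2, -0.13 to 0.18 for Dtx2, 0.00 to 0.50 for Dtx4 and -0.22 to 0.01 for Dtx3l. In these fits the lone library of a genotype was assumed to vary like those of the other. A missed threshold does not show that Maml2, Maml3 or Hes5 is unchanged, and with 2 libraries per genotype the spread itself is known poorly.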

Other observations

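Genes that mark the follicular and the marginal zone fate, the choice in which Notch2 signaling is known to act, were looked up beside the pathway. Of 21 genes tested, none was called changed by limma, while 10 had an unadjusted p under 0.05, 7 lower and 3 higher, beside 13.3% of all tested genes in either direction, and no other tool was run. Among marginal zone genes, Asb2 came nearest, with 1.96 and 2.38 FPKM in WT and 0.532 and 0.302 FPKM in Ets1-/- cells. Its log2 fold change was -1.16 (standard error 0.18) with a Benjamini-Hochberg adjusted limma p of 0.0564. Pik3r4, chosen after its values were seen, had 19.5 and 21.1 FPKM in WT and 9.23 and 10.3 FPKM in Ets1-/- cells. Its adjusted p was 0.0496 from limma, but its log2 fold change of -0.98 misses the minimum of 1 on the log2(FPKM + 1) scale. By mean FPKM it differed 2.08-fold, and pseudocounts of 0.1 and 0.5 gave a call. Mzb1, an endoplasmic reticulum chaperone of antibody assembly, went the other way, at 174.7 and 214.6 FPKM in WT and 271.7 and 290.5 FPKM in Ets1-/- cells with an adjusted p of 0.278. Of the 14 marginal zone genes tested, 10 had a log2 fold change below 0, beside 5809 of all 10949 tested genes. Of these 14, 6 were lower and 3 higher without overlap (beside 22.2% and 19.4% of all tested genes). An unadjusted limma p under 0.05 was reached by 6 lower and 1 higher, beside 761 lower and 700 higher of all 10949 tested genes. Dtx1 and Cr2 are among the 6 lower ones.

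Of 7 follicular genes tested, 3 were higher and 2 lower without overlap, beside 19.4% and 22.2% of all tested genes. Their median log2 fold change was 0.00, with no call. The homing genes Cxcr4 and Ccr7, chosen after their values were seen, and Klf2, a regulator of lymphocyte traffic, were the 3 higher ones. Klf2 had 413.7 and 866.4 FPKM in WT and 1058 and 1338 FPKM in Ets1-/- cells, so its WT libraries alone differed about as much as the genotypes did. Cxcr4 had 210.8 and 291.9 FPKM in WT and 430.6 and 493.6 FPKM in Ets1-/- cells (log2 fold change 0.89, limma, Benjamini-Hochberg adjusted p = 0.163). Ccr7 had 132.8 and 148 FPKM in WT and 214.9 and 182.9 FPKM in Ets1-/- cells. The 2 lower ones, also chosen after their values were seen, were Foxo1, a transcription factor of resting lymphocytes, with 51.9 and 51.0 FPKM in WT and 33.6 and 37.6 FPKM in Ets1-/- cells (log2 fold change -0.52, limma, Benjamini-Hochberg adjusted p = 0.180), and Cxcr5, the receptor that leads B cells into follicles. Cxcr5 had 163 and 123 FPKM in WT and 77.2 and 116 FPKM in Ets1-/- cells (log2 fold change -0.58, limma, Benjamini-Hochberg adjusted p = 0.458). With 1 library left out the log2 fold change ran from -0.87 (without Ets1-/- replicate 2) to -0.28 (without Ets1-/- replicate 1) for Cxcr5.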
